A study of Homo sapiens with 9 samples.

Results

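The integrin and laminin subunit genes are 35 of the 58395 genes counted in each library, taken by matching a named set of symbols to Ensembl identifiers. They comprise 25 integrin genes (17 alpha and 8 beta) and 10 laminin genes, and the set does not hold every member of either family. The cells were MDA-MB-231, a line with mesenchymal features derived from a triple-negative human breast carcinoma, and their RNA was collected 96 h after siRNA was delivered by reverse transfection. The NC group (3 libraries) received a nontargeting control siRNA, and the SKP2-1 and SKP2-2 groups (3 libraries each) received SKP2 siRNA_1 and SKP2 siRNA_2, which target the F-box protein of an SCF ubiquitin ligase. All libraries come from this 1 line, and no untransfected cells are among them. Whether the replicates of a group were separate cultures is not said in the labels, and every p-value therefore refers to the variation among these libraries, part of which can be technical.

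Integrins are cell surface receptors built from 1 alpha and 1 beta subunit, and the pair decides which matrix or cell surface ligand is bound. Integrin beta 1 pairs with the largest number of alpha subunits, beta 4 pairs with alpha 6 in hemidesmosomes, and alpha V pairs with several beta subunits. Laminins are basement membrane glycoproteins, each a trimer of an alpha, a beta and a gamma chain, and they are bound by the integrins that hold alpha 3, alpha 6 or alpha 7. Breast epithelium and carcinoma cells secrete laminins and attach to them. Transcript levels were measured here, and neither the subunit proteins nor the assembled receptors were.

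The upstream windows of 4 members are shown because these genes carry the main contrast of the results. ITGA2, ITGA6 and LAMC1 were higher than in NC with SKP2-1 and lower with SKP2-2, and ITGB1 was lower with both. Each window holds the 250 bases before an annotated RefSeq start (GRCh38.p14), written 5′ to 3′ on the strand of the gene. Capitals mark matches to 3 motifs, each searched on both strands. They are the GC box GGGCGG, the AP-1 site TGANTCA, with N for any base, and the TATA box TATAAA. No matches overlap in these windows.
ITGA2, chr5:52989102-52989351, plus strand: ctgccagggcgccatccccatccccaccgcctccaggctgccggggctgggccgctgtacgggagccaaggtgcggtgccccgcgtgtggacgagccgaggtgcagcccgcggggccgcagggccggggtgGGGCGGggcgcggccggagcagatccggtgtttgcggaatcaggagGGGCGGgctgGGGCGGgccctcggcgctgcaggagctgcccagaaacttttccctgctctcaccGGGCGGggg
ITGA6, chr2:172427086-172427335, plus strand: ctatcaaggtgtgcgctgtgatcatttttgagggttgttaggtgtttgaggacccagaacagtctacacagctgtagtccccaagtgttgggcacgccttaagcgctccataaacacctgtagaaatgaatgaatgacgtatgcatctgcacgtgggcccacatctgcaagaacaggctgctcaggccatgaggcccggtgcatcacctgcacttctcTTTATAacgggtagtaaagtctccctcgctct
LAMC1, chr1:183023170-183023419, plus strand: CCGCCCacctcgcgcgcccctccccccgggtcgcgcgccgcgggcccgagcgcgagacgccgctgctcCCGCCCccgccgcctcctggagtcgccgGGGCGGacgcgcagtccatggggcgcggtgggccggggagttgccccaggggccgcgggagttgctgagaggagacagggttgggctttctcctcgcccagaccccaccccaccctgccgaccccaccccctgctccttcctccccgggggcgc
ITGB1, chr10:32958231-32958480, minus strand: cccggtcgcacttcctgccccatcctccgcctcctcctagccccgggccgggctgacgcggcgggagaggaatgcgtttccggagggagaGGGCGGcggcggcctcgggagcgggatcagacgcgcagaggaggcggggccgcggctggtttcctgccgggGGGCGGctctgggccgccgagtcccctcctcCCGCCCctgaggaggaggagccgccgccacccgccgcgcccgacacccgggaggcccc

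The ITGA2 window was 76.4% G or C and held 4 GC boxes, the LAMC1 window was 79.6% G or C and held 3, and the ITGB1 window shown was 78.4% G or C and held 3. The ITGA6 window shown was 50.8% G or C and held a TATA box match and no GC box. ITGA6 and ITGB1 each have another window in the table, which is not shown. The other ITGA6 window, of the 250 bases that follow, was 71.6% G or C with 3 GC boxes and no TATA box, and the other ITGB1 window was 41.6% G or C with 3 TATA box matches and no GC box. The motif content thus differed between the starts of 1 gene. The last bases of the ITGA2 window lie in the first exon of that gene in GENCODE 29. The median over all windows was 58% G or C. Of the members, 25 had at least 1 window in the RefSeq table, 32 windows in all. The GC box was found in 17 of these 32 windows and in 42.6% of all 35116 windows of the same length. The AP-1 site was found in 2 of the 32 and in 6.57% of all windows, and the TATA box in 2 of the 32 and in 10.7% of all windows. A match is a description of the letters in the window and not a measured binding site.

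The libraries held 35.5 to 49.9 M gene counts. SKP2 was 57.5, 63.8 and 64.9 CPM (the CPM of edgeR, from counts scaled by TMM) in the NC libraries, 3.51, 3.31 and 3.91 CPM with SKP2-1 and 6.09, 5.69 and 6.11 CPM with SKP2-2, so every knockdown library lay below every NC library. The design text names ZIP7 (SLC39A7) in place of SKP2 as the target, and SLC39A7 passed the threshold with neither siRNA (342 ± 8.38 CPM in NC, 343 ± 1.07 with SKP2-1 and 364 ± 10.3 with SKP2-2, SD, n = 3). All 8 genes listed as markers of the cell line were detected and tested, whereas ESR1 and PGR, which a triple-negative line should lack, stayed under 1 CPM in every library. The 8 luminal markers listed summed to 219 to 229 CPM in NC, 304 to 320 with SKP2-1 and 306 to 326 with SKP2-2. KRT19 made up most of that sum (190 ± 6.35, 281 ± 8.09 and 292 ± 8.03 CPM, SD, n = 3). Of the 5 luminal markers tested, 2 rose and 1 fell with SKP2-1, and 1 rose and 2 fell with SKP2-2. The 8 fibroblast markers summed to 26 to 41.2, 25.9 to 29 and 14.6 to 19.6 CPM. The part of both marker lists in the results was not tested. On the third principal component, with 11.6% of the variance, NC replicate 1 (-30.3) and SKP2-2 replicate 3 (-14.6) stood at one end, whereas NC replicate 3 (21.2) and SKP2-2 replicate 1 (21.7) stood at the other. Differences between these libraries are given by member and GC content with LAMA5, and the relation of this axis to GC content was not tested.

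Levels per exon length showed which receptors and ligands the cells transcribe. RPKM (CPM per kilobase of exon) put ITGB1 first of the 35 members in NC, at 244 ± 10.4 (SD, n = 3). LAMB3 followed at 106 ± 15.7, ITGA3 at 91.0 ± 7.56 and ITGA6 at 89.8 ± 6.49, and ITGA3 lay within the spread of both LAMB3 and ITGA6. ITGA2 had 78.3 ± 5.88, LAMC1 59.7 ± 3.59, LAMB2 45.4 ± 4.51 and ITGAV 36.9 ± 2.70 RPKM. ITGA5, ITGB5, LAMB1, LAMA5 and ITGB4 lay between 31.6 and 13.6 RPKM, and LAMA3, ITGB3, ITGAE, ITGA10, ITGA1, ITGB2 and ITGB8 between 5.25 and 1.28 RPKM. The other tested members had at most 0.0971 RPKM in NC. The SKP2-2 order depends on the length used: with the longest transcript ITGA3 ranked 1 and ITGB1 ranked 2 there, while ITGB1 ranked 1 in NC and SKP2-1 with either length. The receptor subunit transcripts in NC were led by beta 1 and the laminin and collagen receptor subunits alpha 3, alpha 6 and alpha 2.

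**Figure D1:**
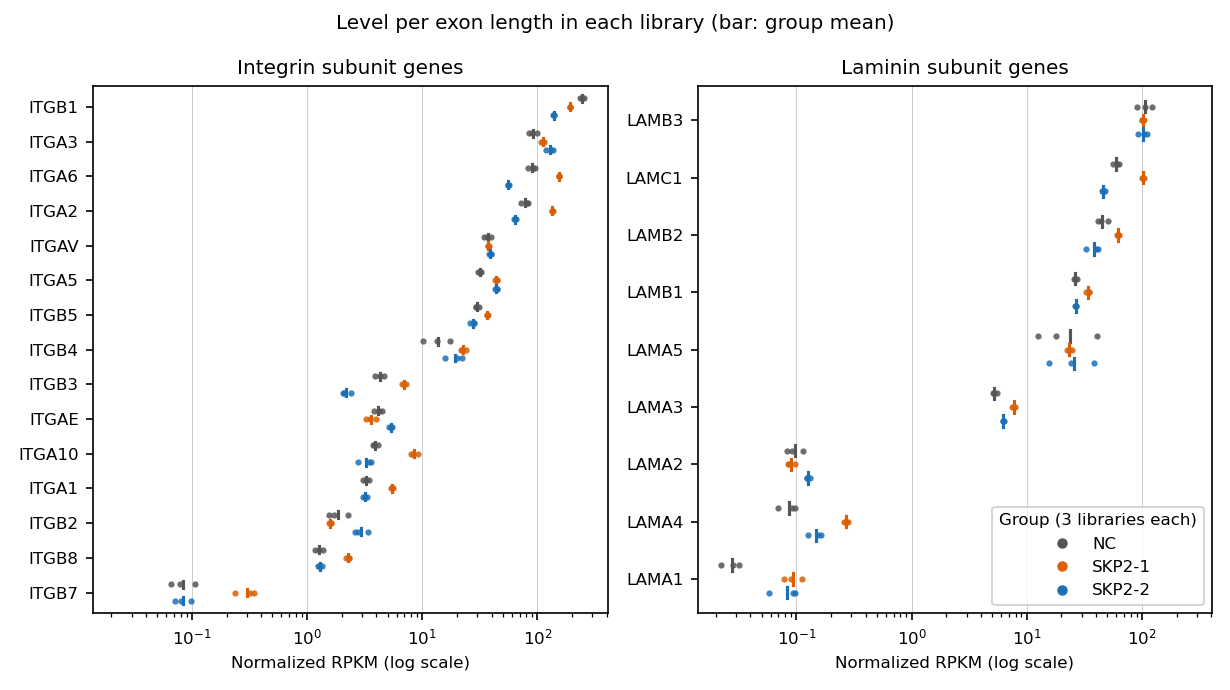
Normalized RPKM (log axis) of integrin genes (left) and laminin genes (right) in each of the 3 libraries of NC, SKP2-1 and SKP2-2, with a vertical bar at each group mean; only members with a group mean of at least 1 CPM are drawn. On this exon length ITGB1 stands highest in every library, and its SKP2-2 points lie left of its NC points; the NC points of LAMA5 are spread wider than those of LAMB1 and LAMA3 beside it.

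Of the 35 members, 28 passed the filter on low counts and were tested, and 7 did not. ITGA4, which encodes the alpha subunit of a receptor for VCAM1, had 0 counts in all 9 libraries. Over the 9 libraries together, ITGA8 had 9 counts, ITGA9 had 11, ITGA11 had 44, ITGAL had 21, ITGAX had 24 and LAMC3 had 3. None of these 7 exceeded 0.307 CPM in any library.

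The comparison of SKP2-1 with NC asks which subunits change with the first siRNA. The collagen receptor genes ITGA1, ITGA2 and ITGA10, the laminin receptor genes ITGA3, ITGA6 and ITGB4, and 6 laminin genes rose, whereas ITGB1 and ITGAE fell. Of the 28 tested members, 18 rose and 2 fell (adjusted p below 0.05 in edgeR's quasi-likelihood test), which is 71.4% against 45.5% of all 16575 genes tested. Among all genes, 25% rose and 20.5% fell. The median log2 fold change of the tested members was 0.46, and that of all genes was 0.02. By family, 12 of 19 integrin genes rose and 2 fell, and 6 of 9 laminin genes rose and 0 fell.

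The second siRNA was compared with the same 3 NC libraries. ITGA3, ITGA5, ITGAE, ITGAM, ITGB2, LAMA1, LAMA3 and LAMA4 rose, and ITGA2, ITGA6, ITGA10, ITGB1, ITGB3, LAMB2 and LAMC1 fell. These 15 calls are 53.6% of the 28 tested members, close to the 49.4% of all genes that were called (25.2% higher and 24.1% lower). Scaled by library size alone, 11 members rose and 5 fell in place of 8 and 7, and the log2 fold changes of all genes shifted by a median of 0.043. The median log2 fold change was 0.11 for the members and 0.03 for all genes.

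The direct comparison of both siRNAs takes no difference from NC. ITGA1, ITGA2, ITGA6, ITGA10, ITGB1, ITGB3, ITGB5, ITGB7 and ITGB8 among the integrins, and LAMA3, LAMA4, LAMB1, LAMB2 and LAMC1 among the laminins, were lower with SKP2-2 than with SKP2-1. In all, 14 members were lower and 7 higher with SKP2-2 than with SKP2-1, 75% of the 28 tested, against 50.5% of all genes (25.3% lower and 25.2% higher). The median log2 difference was -0.28 for the members and 0.03 for all genes. The 7 higher were ITGA3, ITGA7, ITGA2B, ITGAE, ITGAM, ITGB2 and LAMA2. Set side by side, the comparisons with NC, which share their control libraries, gave a rise with both siRNAs for 6 members (12.6% of all genes), a fall with both for 1 (11%) and opposite calls for 7 (6.64%).

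**Figure D2:**
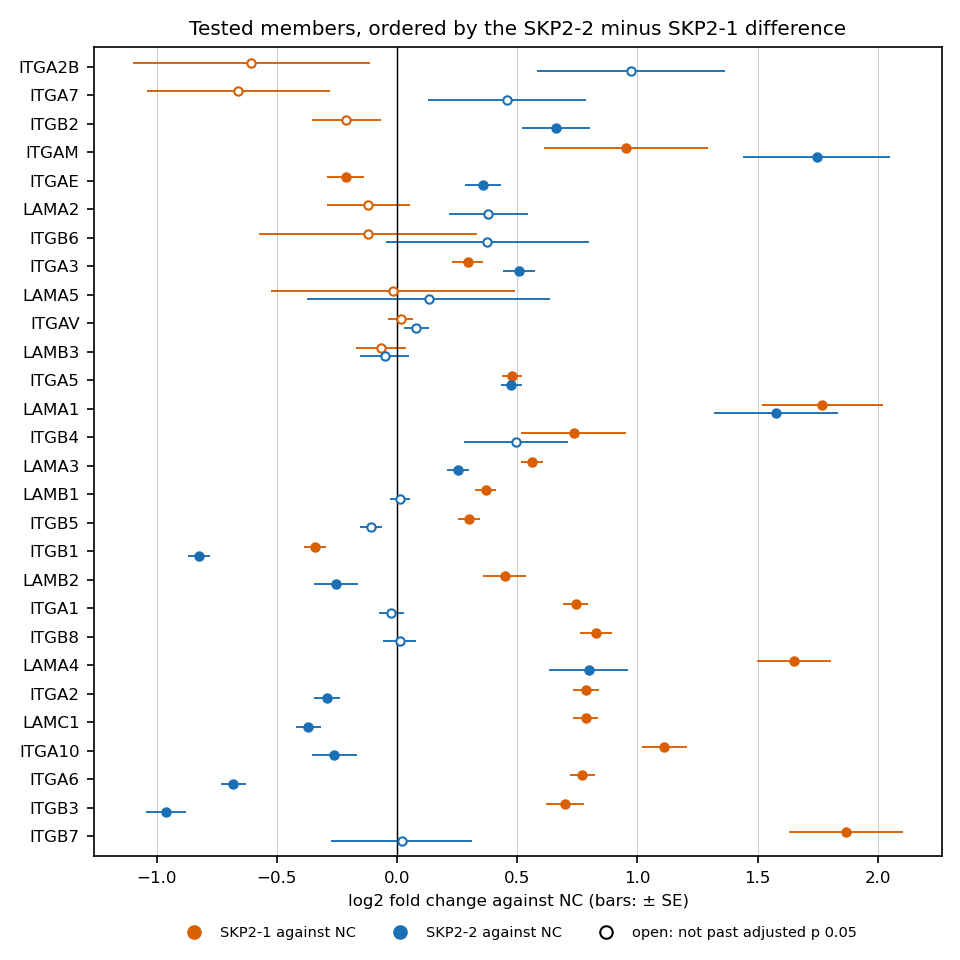
Log2 fold change against NC (horizontal axis, bars ± SE) of the 28 tested members with SKP2-1 (orange) and SKP2-2 (blue), ordered by the difference between the siRNAs; filled points passed adjusted p 0.05. ITGB3, ITGA6, ITGA10, LAMC1, ITGA2 and LAMB2 have filled points on opposite sides of 0, and ITGB1 has both points left of 0.

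ITGB1 (ENSG00000150093, chromosome 10, 32900319 to 33005792, minus strand, GENCODE 29 on GRCh38) encodes the beta subunit shared by most matrix-binding integrins. Its level was 1403, 1474 and 1528 CPM in NC, 1162, 1156 and 1159 CPM with SKP2-1, and 832, 817 and 839 CPM with SKP2-2. The 3 groups did not overlap, with NC highest and SKP2-2 lowest. ITGB1 was 1.27 times lower with SKP2-1 (log2 fold change -0.34, SE 0.05, adjusted p = 3.86e-05). The SKP2-2 level was 1.77 times lower than NC (-0.82, SE 0.05, adjusted p = 9.8e-09). It was also lower with SKP2-2 than with SKP2-1 (log2 difference -0.48, SE 0.05, adjusted p = 1.34e-06). No other tested member fell with both siRNAs, and all 3 ITGB1 calls held under each of the 18 alternatives run.

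Among the alpha subunits that bind collagen, ITGA2 (ENSG00000164171, chromosome 5, 52989326 to 53094779) was the most abundant. It had 566, 638 and 653 CPM in NC, 1054, 1062 and 1083 CPM with SKP2-1, and 513, 509 and 495 CPM with SKP2-2. Every SKP2-1 library lay above and every SKP2-2 library below the NC libraries. ITGA2 rose 1.72-fold with SKP2-1 (log2 fold change 0.78, SE 0.05, adjusted p = 8.77e-08) and fell by 0.29 on the log2 scale with SKP2-2 (SE 0.05, adjusted p = 0.00054). The siRNAs differed by 1.08 on that scale (SKP2-2 2.11 times lower, adjusted p = 3.85e-09).

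ITGA10, the alpha subunit of a collagen receptor best known in cartilage, showed the same order at a lower level. It had 23.7, 24.3 and 26.3 CPM in NC, 50.7, 57.8 and 52.3 CPM with SKP2-1, and 17.4, 22.7 and 22.0 CPM with SKP2-2. The rise with SKP2-1 was 2.16-fold (log2 fold change 1.11, SE 0.09, adjusted p = 1.53e-06), while the SKP2-2 value lay just inside the threshold (-0.26, SE 0.09, adjusted p = 0.0378). That second call was lost with library size alone (-0.22), without NC replicate 2 (-0.28), without NC replicate 3 (-0.22) and without SKP2-1 replicate 3 (-0.26). Between the siRNAs the log2 difference was -1.37 (SE 0.09, adjusted p = 2.16e-07).

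ITGA1, the alpha subunit of a receptor for collagen IV and other collagens, had 57.2, 59.8 and 64.0 CPM in NC, 99.3, 101 and 103 CPM with SKP2-1, and 59.5, 61.7 and 56.9 CPM with SKP2-2. The NC and SKP2-2 libraries overlapped and the SKP2-1 libraries stood above both. It rose 1.67-fold with SKP2-1 (adjusted p = 8.61e-08), was -0.02 on the log2 scale with SKP2-2 (adjusted p = 0.731), and differed between the siRNAs (log2 difference -0.77, adjusted p = 5.09e-08). The gene PELO lies within ITGA1 on the same strand, 6.39% of the exon bases of ITGA1 are shared with other genes, and PELO passed with neither siRNA (adjusted p = 0.792 and 0.0811). ITGA11, the remaining collagen-binding member, was not tested.

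The alpha subunits that bind laminin moved apart from each other. ITGA6 (ENSG00000091409, chromosome 2, 172427354 to 172506282), partner of beta 1 and beta 4, had 538, 602 and 619 CPM in NC. It had 998, 996 and 1007 CPM with SKP2-1 and 369, 366 and 362 CPM with SKP2-2, with no overlap among the groups. ITGA6 rose 1.71-fold with SKP2-1 (log2 fold change 0.77, SE 0.05, adjusted p = 7.2e-08) and fell by 0.68 on that scale with SKP2-2 (SE 0.05, adjusted p = 2.08e-07). Its 2.74-fold gap between the siRNAs (log2 difference -1.45, SE 0.05, adjusted p = 2.05e-10) was the largest among members above 50 CPM in NC.

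ITGA3 (ENSG00000005884, chromosome 17, 50055968 to 50090481), which pairs with beta 1 as a receptor for laminins of epithelial basement membranes, was higher with both siRNAs. It had 969, 884 and 822 CPM in NC, 1062, 1110.3 and 1105 CPM with SKP2-1, and 1171, 1282 and 1348 CPM with SKP2-2. The groups did not overlap. ITGA3 rose 1.23-fold with SKP2-1 (log2 fold change 0.29, SE 0.07, adjusted p = 0.00255) and 1.42-fold with SKP2-2 (0.51, SE 0.07, adjusted p = 2.8e-05), the latter smaller with GC offsets (0.33, adjusted p = 0.000366). The SKP2-1 call was lost when NC and SKP2-1 alone were fitted (0.22, adjusted p = 0.0738). The difference between the siRNAs (0.21, adjusted p = 0.0159) was lost without SKP2-1 replicate 1 (0.19), SKP2-2 replicate 2 (0.20) or SKP2-2 replicate 3 (0.17), and with GC offsets (0.05, adjusted p = 0.47).

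ITGA7, known from muscle, had at most 0.814 CPM. Its SKP2-1 libraries (0.354, 0.154 and 0.284 CPM) lay below the NC libraries (0.534, 0.398 and 0.360 CPM) without passing the threshold (adjusted p = 0.181), and the SKP2-2 libraries had 0.370, 0.544 and 0.814 CPM (adjusted p = 0.277). The siRNAs differed from each other (log2 difference 1.12, SE 0.36, adjusted p = 0.0196), a call lost with DESeq2 (1.11) and without SKP2-1 replicate 2 (0.87) or SKP2-2 replicate 3 (0.78).

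Of the alpha subunits that recognise RGD motifs, ITGA5 (ENSG00000161638, chromosome 12, 54395261 to 54419460), the alpha subunit of the classical fibronectin receptor, rose with both siRNAs. It had 232, 240.5 and 245 CPM in NC, 323, 337 and 341 CPM with SKP2-1, and 336, 339 and 323 CPM with SKP2-2. Both knockdown groups stood above NC and overlapped each other. The rise was 1.39-fold with SKP2-1 (log2 fold change 0.48, SE 0.04, adjusted p = 1.12e-06) and 1.39-fold with SKP2-2 (0.48, SE 0.04, adjusted p = 1.02e-06). Their difference was -0.00 on the log2 scale with an SE of 0.04 (adjusted p = 0.961).

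ITGAV, the alpha subunit of the vitronectin receptors, had 283, 299.9 and 327 CPM in NC, 308, 309 and 304 CPM with SKP2-1, and 326, 325 and 311 CPM with SKP2-2. It passed with neither siRNA (log2 fold change 0.02, adjusted p = 0.827, and 0.08, adjusted p = 0.223, each with an SE of 0.05). The SKP2-2 value passed with library size alone (0.12), without NC replicate 3 (0.14) and with GC offsets (0.17). ITGA2B, the platelet fibrinogen receptor subunit, had at most 18 counts in a library and passed between the siRNAs (log2 difference 1.58, SE 0.43, adjusted p = 0.00743). Against NC its SKP2-2 value (0.97, adjusted p = 0.0549) passed without NC replicate 1 (1.30). All 6 platelet and megakaryocyte markers listed, ITGA2B among them, stayed under 1 CPM in every library, with GP9 and TREML1 at 0 counts.

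Among the alpha subunits named for leukocytes, ITGAE, which pairs with beta 7 and binds E-cadherin, had 25.4, 27.9 and 29.5 CPM in NC. It had 26.3, 23.4 and 21.8 CPM with SKP2-1, which overlapped NC, and 36.2, 35.7 and 34.2 CPM with SKP2-2, which stood above both. ITGAE rose 1.28-fold with SKP2-2 (log2 fold change 0.36, SE 0.07, adjusted p = 0.00136). Its fall with SKP2-1 (-0.21, SE 0.08, adjusted p = 0.0331) was lost with the replicate number as a block (-0.22) and without NC replicate 2 (-0.21) or 3 (-0.16), SKP2-1 replicate 2 (-0.20) or 3 (-0.15), or SKP2-2 replicate 2 (-0.21). HASPIN, a mitotic kinase gene, lies in ITGAE on the opposite strand, together with another gene it overlaps 7.59% of the exon bases of ITGAE, and it was lower with both siRNAs (32.2 ± 0.947 CPM in NC, 13.1 ± 0.646 and 16.5 ± 0.0907, SD, n = 3). Whether the counting used strand is not given in the sources used here. Without strand, reads of both genes cannot be told apart there, and reads that fell in several genes were left out. The effect of the overlap with HASPIN on the ITGAE values was not tested.

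ITGAM, the alpha subunit of a macrophage and neutrophil complement receptor, had 5 to 8 counts in the NC libraries, 12 to 15 with SKP2-1 and 19 to 26 with SKP2-2. It rose with SKP2-2 (log2 fold change 1.75, SE 0.31, adjusted p = 0.000367), and its difference between the siRNAs (0.79, adjusted p = 0.025) was lost under 7 of the 17 alternatives in which it was tested, among them the fits without any 1 of the SKP2-1 replicates (0.79 each) or without SKP2-2 replicate 2 (0.71) or 3 (0.79). Its rise with SKP2-1 (0.95, SE 0.34, adjusted p = 0.0361) was lost under 9 of those 17. These were DESeq2 (adjusted p = 0.175), no filter on low counts, the replicate block, the fit on both groups alone, and the fits without NC replicate 2 or 3 (0.94 and 0.71) or without SKP2-1 replicate 1, 2 or 3 (0.95, 0.95 and 0.96). ITGB2, its beta partner on leukocytes, had 15.5, 11.7 and 10.5 CPM in NC, 10.9, 10.5 and 11.0 CPM with SKP2-1, and 17.8, 18.8 and 22.9 CPM with SKP2-2. It rose 1.58-fold with SKP2-2 (log2 fold change 0.66, SE 0.14, adjusted p = 0.00342), with no overlap. With SKP2-1 it was -0.21 on the log2 scale (adjusted p = 0.273), and that value passed with GC offsets (-0.22, adjusted p = 0.0189).

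The immune cell markers listed include ITGAM and ITGB2 themselves, so they are given here without both. Of the other 10, 5 were tested and 5 stayed under 1 CPM in every library. Among those tested, 4 rose and 0 fell with SKP2-1, and 4 rose and 0 fell with SKP2-2. Their summed level was 7.27 to 8.04 CPM in NC, 11.2 to 12.7 CPM with SKP2-1 and 11.2 to 12 CPM with SKP2-2, and its part in the ITGAM and ITGB2 values was not tested. The pan-leukocyte marker PTPRC was at most 1.10 CPM. In bulk RNA, a change in the number of cells of a type and a change in RNA per cell cannot be told apart.

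Among the other beta subunits, ITGB3 (ENSG00000259207, chromosome 17, 47253846 to 47311816), partner of alpha V in a vitronectin receptor, had 17.2, 18.7 and 20.4 CPM in NC. It had 29.5, 30.3 and 31.8 CPM with SKP2-1 and 10.7, 9.23 and 9.06 CPM with SKP2-2, and the 3 groups did not overlap. ITGB3 rose 1.62-fold with SKP2-1 (log2 fold change 0.70, SE 0.08, adjusted p = 8.58e-06) and fell by 0.96 on that scale with SKP2-2 (SE 0.08, adjusted p = 5.37e-07). The siRNAs differed 3.16-fold (log2 difference -1.66, SE 0.08, adjusted p = 2.91e-09). GENCODE 29 places AC068234.1 on the same strand over 51.6% of the exon bases of ITGB3, and AC068234.1 had 0 counts in all libraries. Reads that fell in several genes were left out, so these 0 counts do not show how the shared bases were read. The ITGB3 RPKM divides by all exon bases of the gene and can therefore be too low.

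ITGB5 and ITGB8, which also pair with alpha V, passed the threshold against NC with SKP2-1 and not with SKP2-2. ITGB5 had 200.3, 187 and 187 CPM in NC, 233, 238 and 235 CPM with SKP2-1, and 168, 182 and 182 CPM with SKP2-2. It rose 1.23-fold with SKP2-1 (log2 fold change 0.30, adjusted p = 0.000154), and its SKP2-2 value (-0.11, adjusted p = 0.0684) passed under 5 of 18 alternatives, among them the fit without NC replicate 3 (-0.13) and GC offsets (-0.16). ITGB8, known for activating latent TGF-beta, had 17.8, 19.2 and 21.0 CPM in NC, 34.8, 35.3 and 32.9 CPM with SKP2-1, and 19.3, 20.3 and 18.9 CPM with SKP2-2. It rose 1.77-fold with SKP2-1 (adjusted p = 4.4e-07) and was 0.01 on the log2 scale with SKP2-2 (SE 0.07, adjusted p = 0.913). The direct tests between the siRNAs gave a log2 difference of -0.41 for ITGB5 (adjusted p = 8.46e-06) and -0.82 for ITGB8 (adjusted p = 3.98e-07).

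ITGB4 (ENSG00000132470, chromosome 17, 75721328 to 75757818), the hemidesmosome partner of alpha 6, had 119, 90.0 and 68.2 CPM in NC. It had 149, 163 and 148 CPM with SKP2-1 and 106, 134 and 149.6 CPM with SKP2-2. The SKP2-1 libraries lay above all NC libraries, and the SKP2-2 libraries overlapped both other groups. The rise with SKP2-1 was 1.66-fold (log2 fold change 0.74, SE 0.22, adjusted p = 0.0324). It was lost under 9 of 18 alternatives, among them the fits without NC replicate 2 (0.72), NC replicate 3 (0.56), SKP2-1 replicate 1 (0.75), 2 (0.69) or 3 (0.76), or SKP2-2 replicate 2 (0.73). With SKP2-2 the log2 fold change was 0.49 (SE 0.22, adjusted p = 0.108), and it passed without NC replicate 1 (0.70, adjusted p = 0.0238) and with GC offsets (0.28, adjusted p = 0.000632).

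ITGB7, a leukocyte partner of alpha 4 and alpha E, had 14 to 17 counts in the NC libraries, 45 to 71 with SKP2-1 and 15 to 18 with SKP2-2. Its level of 1.06, 1.56 and 1.44 CPM with SKP2-1 stood above both the NC libraries (0.478, 0.354 and 0.296 CPM) and the SKP2-2 libraries (0.444, 0.363 and 0.321 CPM). The rise with SKP2-1 was 3.65-fold (log2 fold change 1.87, SE 0.24, adjusted p = 2.74e-05). ZNF740 overlaps 42.1% of the ITGB7 exon bases on the opposite strand and was 53.8 ± 3.06 CPM in NC, 54.1 ± 0.105 with SKP2-1 and 56.4 ± 1.25 with SKP2-2 (SD, n = 3). Without strand, reads of both genes cannot be told apart there, and reads that fell in several genes were left out. The effect of this overlap on the ITGB7 values was not tested. ITGB6, an epithelial partner of alpha V, had 6 to 21 counts in a library and passed in no comparison.

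The balance of the receptor genes was described from summed RPKM. The alpha genes that pair with beta 1 alone (ITGA1, ITGA2, ITGA3, ITGA5, ITGA7, ITGA8, ITGA9, ITGA10 and ITGA11) summed to 208, 209.7 and 206.5 RPKM in NC, 297.7, 306.5 and 308.5 with SKP2-1, and 234.7, 246.9 and 249.5 with SKP2-2. Divided by ITGB1 in the same library, the ratio was 0.853 ± 0.0394 in NC, 1.578 ± 0.0324 with SKP2-1 and 1.766 ± 0.0634 with SKP2-2 (SD, n = 3). No library of either knockdown group overlapped NC. A two-sided exact permutation test gave p = 0.1 for each siRNA, the smallest value that 3 against 3 libraries allow. With ITGA4, ITGA6 and ITGAV added, the ratio was 1.371 ± 0.0263, 2.566 ± 0.0355 and 2.455 ± 0.065. The longest transcript as length gave 1.154 ± 0.0382, 2.099 ± 0.0326 and 2.201 ± 0.07, so the order of the siRNAs in this wider ratio turned with the length used, while both stayed above NC.

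ITGB1 made up 80.61, 83.15 and 84.45% of the summed RPKM of the 8 beta genes in NC. Its share was 73.64, 72.73 and 73.44% with SKP2-1 and 74.16, 71.39 and 70.96% with SKP2-2, below NC in all 6 knockdown libraries (exact permutation p = 0.1 for each siRNA). The ratio of ITGA3 to ITGA6 was 1.021 ± 0.162 in NC, 0.728 ± 0.0169 with SKP2-1 and 2.311 ± 0.183 with SKP2-2 (SD, n = 3). The ratio of ITGA6 to ITGB4 was 7.003 ± 2.34 in NC, 6.763 ± 0.373 with SKP2-1 and 2.98 ± 0.571 with SKP2-2, and it ranged from 4.701 to 9.381 over the NC libraries. These ratios rest on exon lengths from the annotation, and with the longest transcript as length the ITGA3 to ITGA6 ratio was 1.571, 1.12 and 3.556. They compare transcripts of genes and not receptors on the cell surface.

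**Figure D3:**
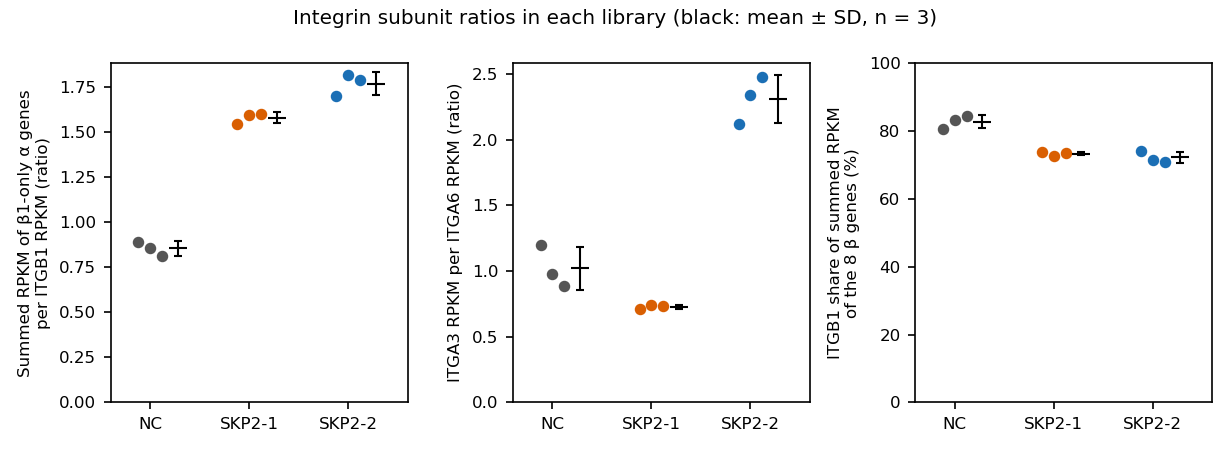
Ratios of RPKM in each library of NC, SKP2-1 and SKP2-2 (points; black marks are mean ± SD, n = 3): alpha genes pairing with beta 1 alone per ITGB1 (left), ITGA3 per ITGA6 (middle), and the percent of beta gene RPKM taken by ITGB1 (right). The left ratio is 0.853 in NC against 1.578 and 1.766, the middle ratio is highest with SKP2-2, and the ITGB1 share is highest in NC.

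On the ligand side, the laminin gamma gene LAMC1 (ENSG00000135862, chromosome 1, 183023460 to 183145592), whose product is the gamma chain of most laminins, had 469, 509 and 528 CPM in NC. It had 849, 867 and 879 CPM with SKP2-1 and 405, 386 and 375 CPM with SKP2-2, with no overlap. LAMC1 rose 1.72-fold with SKP2-1 (log2 fold change 0.79, SE 0.05, adjusted p = 5.89e-08) and fell by 0.37 on that scale with SKP2-2 (SE 0.05, adjusted p = 5.3e-05). The siRNAs differed 2.23-fold (log2 difference -1.15, SE 0.05, adjusted p = 1.36e-09). ITGA2, ITGA6 and LAMC1, whose upstream windows are printed above, thus shared 1 order of groups, while ITGB1 followed another.

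LAMB1 and LAMB2 encode the beta chains found with gamma 1. LAMB1 had 208, 213 and 223 CPM in NC, 268, 281 and 284 CPM with SKP2-1, and 219, 216 and 215 CPM with SKP2-2. It rose 1.29-fold with SKP2-1 (log2 fold change 0.37, SE 0.04, adjusted p = 1.17e-05) and was 0.01 on the log2 scale with SKP2-2 (SE 0.04, adjusted p = 0.831). LAMB2 had 345, 306 and 284 CPM in NC, 422, 435 and 416 CPM with SKP2-1, and 226, 273 and 284 CPM with SKP2-2. LAMB2 rose 1.36-fold with SKP2-1 (0.45, SE 0.09, adjusted p = 0.00261) and was lower with SKP2-2 than with SKP2-1 (log2 difference -0.70, SE 0.09, adjusted p = 0.000123). Its fall with SKP2-2 (-0.25, SE 0.09, adjusted p = 0.0413), whose libraries met those of NC at 284 CPM, was lost under 10 of 18 alternatives, with values from -0.29 to -0.19, and it was larger with GC offsets (-0.42, adjusted p = 3.95e-07). Among the alternatives that lost it were the fits without NC replicate 1 (-0.19) or 2 (-0.27), without any 1 of the SKP2-1 replicates (-0.26 each), and without SKP2-2 replicate 1 (-0.21) or 2 (-0.29).

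LAMB3, the beta chain of the laminin that anchors hemidesmosomes, had the highest RPKM of the laminin genes in NC and with SKP2-2, and came just after LAMC1 with SKP2-1 (102 against 103). It had 570.5, 501 and 423 CPM in NC, 472, 487 and 469 CPM with SKP2-1, and 434, 493 and 514 CPM with SKP2-2. All groups overlapped, and it passed with neither siRNA (log2 fold change -0.07, adjusted p = 0.646, and -0.05, adjusted p = 0.712, each with an SE of 0.10). With GC offsets the SKP2-2 value passed (-0.18, adjusted p = 0.00178).

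The laminin alpha chain carries the integrin-binding domains. LAMA3 (ENSG00000053747, chromosome 18, 23689443 to 23956222), the alpha chain that joins LAMB3, had 74.4, 75.9 and 80.7 CPM in NC, 109.9, 117 and 114 CPM with SKP2-1, and 93.3, 90.8 and 91.4 CPM with SKP2-2. The groups did not overlap. It rose 1.48-fold with SKP2-1 (log2 fold change 0.56, SE 0.05, adjusted p = 3.88e-07) and 1.19-fold with SKP2-2 (0.25, SE 0.05, adjusted p = 0.000426). The rise was smaller with SKP2-2 (log2 difference -0.31, SE 0.05, adjusted p = 7.67e-05).

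LAMA4, known from blood vessels and muscle, had 1.12, 0.796 and 1.06 CPM in NC, 2.97, 3.26 and 3.10 CPM with SKP2-1, and 1.45, 1.88 and 1.80 CPM with SKP2-2. It rose 3.14-fold with SKP2-1 (log2 fold change 1.65, SE 0.15, adjusted p = 1.52e-06) and 1.74-fold with SKP2-2 (0.80, SE 0.16, adjusted p = 0.00119). LAMA1, the embryonic alpha chain, had 0.450, 0.354 and 0.508 CPM in NC, 1.25, 1.44 and 1.78 CPM with SKP2-1, and 1.55, 1.47 and 0.921 CPM with SKP2-2. Its rise was 3.41-fold with SKP2-1 (1.77, SE 0.25, adjusted p = 7.4e-05) and 2.98-fold with SKP2-2 (1.58, SE 0.26, adjusted p = 0.000204). Both genes stayed at or below 3.26 CPM in every library. Of 7 endothelial markers listed, 5 stayed under 1 CPM in every library, CLDN5 and ERG had 0 counts, and PECAM1 rose with SKP2-1 from 4.03 ± 0.239 to 9.32 ± 0.829 CPM (SD, n = 3, adjusted p = 4.74e-07). KDR, the other one tested, rose with both siRNAs (log2 fold change 1.04, adjusted p = 1.51e-06, and 0.43, adjusted p = 0.00284). The summed endothelial level was 7.11 to 8.19 CPM in NC, 15.7 to 17.4 CPM with SKP2-1 and 7.94 to 9.50 CPM with SKP2-2, and its part in the LAMA4 values was not tested. LAMA2, the muscle and nerve alpha chain, had 0.956, 1.19 and 0.868 CPM in NC, 1.01, 0.897 and 0.872 CPM with SKP2-1, and 1.36, 1.29 and 1.29 CPM with SKP2-2. It passed between the siRNAs and not against NC (log2 difference 0.50, SE 0.17, adjusted p = 0.0241), a call lost with DESeq2 (adjusted p = 0.137) and without SKP2-1 replicate 2 (0.48) or 3 (0.45), or SKP2-2 replicate 1 (0.47) or 2 (0.51). Its SKP2-2 value against NC (0.38, adjusted p = 0.0747) passed without NC replicate 2 (0.53).

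LAMA5 (ENSG00000130702, chromosome 20, 62307955 to 62367312), the broadly expressed epithelial alpha chain, took 68.5 to 88.53% of the summed laminin alpha RPKM in NC. It had 583, 256 and 177 CPM in NC, 332, 351 and 322 CPM with SKP2-1, and 224, 346 and 543 CPM with SKP2-2. The highest library was 3.29 times the lowest within NC, 2.42 times within SKP2-2 and 1.09 times within SKP2-1. The log2 fold change was -0.02 (SE 0.51, adjusted p = 0.984) with SKP2-1 and 0.13 (SE 0.51, adjusted p = 0.858) with SKP2-2, so a change in LAMA5 below that spread was not detectable. Without NC replicate 1 the values were 0.61 (adjusted p = 0.265) and 0.76 (adjusted p = 0.164). Without NC replicate 3 they were -0.33 and -0.18, and without SKP2-2 replicate 3 the SKP2-2 value was -0.25, so the sign turned with single libraries and LAMA5 passed under none of the 18 alternatives.

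LAMA5 varied most of the 24 members with a group mean of at least 1 CPM, both within NC and within SKP2-2. Within NC it was followed by ITGB4, ITGB7 and ITGB2, whose highest library was 1.74, 1.61 and 1.48 times the lowest, and then by LAMA1 (1.44), LAMA4 (1.41) and LAMA2 (1.38), which have few counts. Within SKP2-2 it was followed by LAMA1 (1.69) and ITGB4 (1.42). Between NC replicate 1 and replicate 3, LAMA5 differed by 1.72 on the log2 scale, ITGB4 by 0.80, ITGB7 by 0.69, ITGB2 by 0.57, LAMB3 by 0.43, LAMB2 by 0.28 and ITGA3 by 0.24, all higher in replicate 1. The longest transcripts of these 7 were 58.9 to 66.4% G or C, against 46.5 to 50.5% for LAMA1, LAMA2 and LAMA4, which differed by -0.17, 0.14 and 0.09. Between SKP2-2 replicate 3 and replicate 1, LAMA5 differed by 1.28 and ITGB4 by 0.50, higher in replicate 3, whereas ITGB7 differed by -0.47 and LAMA1 by -0.75. Over the 24 members, the difference in NC had a Pearson r of 0.73 with GC content (Spearman 0.71), and that in SKP2-2 had 0.47 (0.45). Over 13265 genes with a mean of at least 1 CPM over the 9 libraries, scaled by library size alone, the values were 0.64 (0.62) and 0.55 (0.50). These are descriptions across genes of the same libraries, which are not independent. ITGB1, ITGA1, ITGA2 and ITGA6, with 38.8 to 42.9% G or C, differed between NC replicates 1 and 3 by at most 0.21 on that scale.

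**Figure D4:**
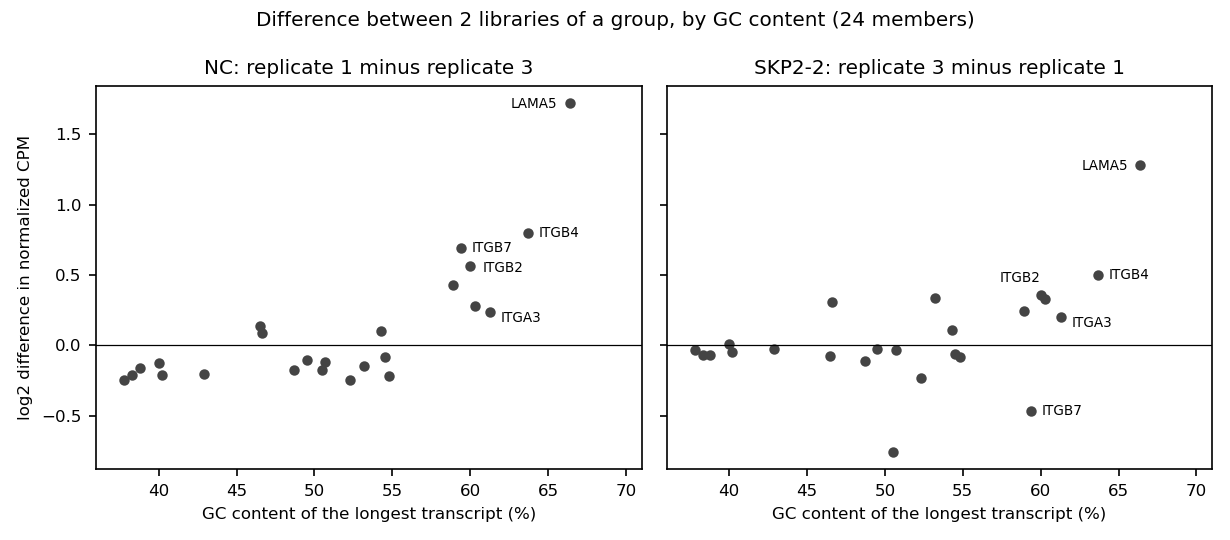
Log2 difference in CPM between 2 libraries of a group against the GC content of the longest transcript, for 24 members with a group mean of at least 1 CPM: NC replicate 1 minus replicate 3 (left) and SKP2-2 replicate 3 minus replicate 1 (right). LAMA5, at 66.4% G or C, lies highest in both plots, at 1.72 and 1.28.

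Genes around the receptors were taken from 5 lists, and each list is given by counts. Among all genes tested, 25% rose and 20.5% fell with SKP2-1, and 25.2% rose and 24.1% fell with SKP2-2. Between the siRNAs, 25.2% were higher and 25.3% lower with SKP2-2. Most genes named were picked because they passed with both siRNAs in 1 direction, while CRKL, VCL and NID1 were named outside that rule. The genes named therefore do not stand for their list. In the adhesion machinery that links integrins to actin, 44 genes were tested, of which 16 rose and 3 fell with SKP2-1, and 16 rose and 5 fell with SKP2-2. Their median log2 fold change was 0.05 and 0.15. ARHGAP5, a GTPase-activating protein, rose from 271 ± 16.2 CPM in NC to 475 ± 4.51 with SKP2-1 and 436 ± 11.2 with SKP2-2 (SD, n = 3). FERMT1, a kindlin that activates integrins, rose from 37.8 ± 1.69 to 62.1 ± 1.75 and 49.1 ± 3.51 CPM. RHOA, the GTPase of stress fibres, rose from 542 ± 24.9 to 672 ± 5.42 and 674 ± 23.0 CPM, and FYN, a Src family kinase, from 40.7 ± 2.90 to 54.7 ± 1.08 and 49.5 ± 1.16 CPM. In the other direction, CRKL fell with both siRNAs (126 ± 5.75 CPM in NC, 109 ± 1.98 and 94.6 ± 2.10). VCL fell with SKP2-2 alone (767 ± 23.2 CPM in NC, 307 ± 10.1 with SKP2-2).

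Among 23 hemidesmosome and laminin-receptor partners, 12 rose and 4 fell with SKP2-1, and 10 rose and 5 fell with SKP2-2. COL17A1, a hemidesmosomal collagen, rose from 11.3 ± 0.445 CPM to 18.2 ± 1.16 and 19.6 ± 1.02 CPM. CD9, a tetraspanin that binds integrins, rose from 133 ± 7.93 to 170.2 ± 0.516 and 204 ± 7.52 CPM. EGFR, a growth factor receptor that acts with alpha 6 beta 4, rose from 533 ± 15.9 to 679 ± 14.2 and 813 ± 21.0 CPM. MET, the hepatocyte growth factor receptor, fell from 343 ± 18.1 to 202 ± 1.11 and 221 ± 3.43 CPM (SD, n = 3 throughout).

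Of 14 tested basement membrane partners of laminin, 6 rose and 1 fell with SKP2-1, and 2 rose and 4 fell with SKP2-2. LOXL2, which cross-links collagen IV, rose from 423 ± 30.6 to 553 ± 8.18 and 618 ± 27.8 CPM. COL15A1, a basement membrane collagen, fell from 4.07 ± 0.135 to 3.32 ± 0.162 and 2.44 ± 0.282 CPM (SD, n = 3). NID1, which links laminin to collagen IV, had 0 counts in all 9 libraries.

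The other matrix and cell surface ligands of integrins split by siRNA. Of 27 tested, 15 rose and 2 fell with SKP2-1, and 5 rose and 14 fell with SKP2-2, with a median log2 fold change of 0.26 and -0.15. Between the siRNAs, 4 were higher and 17 lower with SKP2-2 (median -0.61). FBN1, a microfibril protein bound by alpha V and alpha 5 integrins, rose from 75.2 ± 0.621 to 234 ± 3.72 CPM with SKP2-1 and 130.4 ± 5.03 CPM with SKP2-2. ICAM2, a ligand of leukocyte integrins, rose from 10.8 ± 0.710 to 15.4 ± 0.177 and 18.0 ± 0.850 CPM, and FBN2 rose from 0.216 ± 0.162 to 0.518 ± 0.0301 and 0.492 ± 0.110 CPM. CDH1, encoding E-cadherin, the ligand of alpha E beta 7, fell from 12.4 ± 1.45 to 8.15 ± 0.637 and 3.89 ± 0.224 CPM (SD, n = 3).

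Among 19 tested genes of integrin trafficking and activation, 9 rose and 1 fell with SKP2-1, and 8 rose and 6 fell with SKP2-2. RAB11A, a GTPase of the slow recycling route, rose from 147 ± 8.47 to 183 ± 1.78 and 167 ± 4.13 CPM. RAB5A, which acts in early endosomes, rose from 123 ± 4.15 to 144 ± 2.30 and 139 ± 3.82 CPM. RAP1GAP, which inactivates Rap1, rose from 0.389 ± 0.0987 to 0.628 ± 0.0884 and 1.18 ± 0.164 CPM (SD, n = 3).

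**Figure D5:**
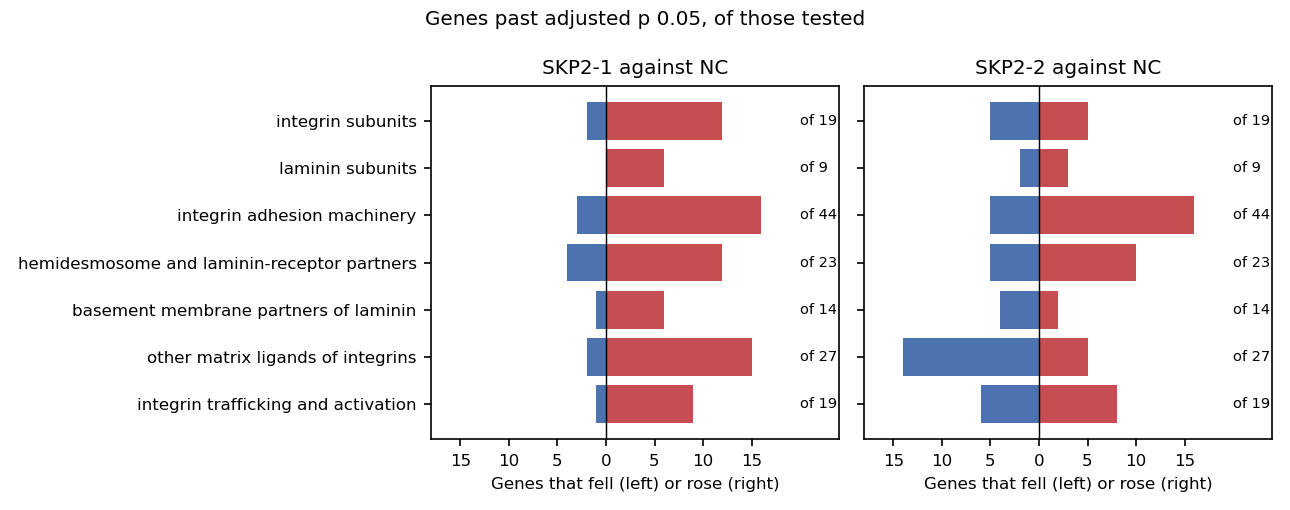
Number of genes past adjusted p 0.05 that fell (left of 0, blue) or rose (right of 0, red) against NC with SKP2-1 and SKP2-2, for the integrin and laminin subunit genes and the 5 lists around them, with the number tested at the right. Integrin subunits go from 12 rises and 2 falls with SKP2-1 to 5 and 5 with SKP2-2, and the other matrix ligands from 15 and 2 to 5 and 14. Of all genes tested, 25% rose and 20.5% fell with SKP2-1, and 25.2% rose and 24.1% fell with SKP2-2.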

How the data were processed

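The authors deposited, for every library, a table of unnormalized counts of reads for each Ensembl identifier. Total RNA had been column-purified with DNase I digestion, per the labels' protocols. Tools named in the submitters' processing notes are STAR, HTSeq 0.6.1, DESeq2 1.16.1, FastQC 0.11.2 and Trim Galore 0.4.1. Settings, genome build, annotation and strand are not given in the sources used here. Reads outside genes (5.34 to 5.92% of all reads tallied for a library, those without a gene included) or in several genes (3.87 to 3.97%) were left out.

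Counts of 58395 genes were filtered with filterByExpr (minimum count 10, minimum total 15), scaled by TMM and fitted over all 9 libraries with edgeR 4.0.16 in R 4.3.3. Two-sided quasi-likelihood tests were adjusted by Benjamini-Hochberg over 16575 genes, with a threshold of 0.05. RPKM used exon-union lengths from GENCODE 29, which also gave the coordinates. Library totals were 35.5 to 49.9 M, and the median SE of a log2 fold change was 0.0852 for each siRNA against NC. The fit was also run on simulated counts with the same spread for all genes and no library differences linked to GC content. That check does not cover members with a wide spread, such as LAMA5 and ITGB4.

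The members and lists were chosen with earlier results of these data known. Values in every library are given for members of at least 1 CPM in a group that passed in any comparison. From each list, up to 4 genes that passed with both siRNAs in 1 direction were named by the size of the smaller change. CRKL, VCL and NID1, and the list genes under other observations, were named outside this rule. The 2 alternatives without NC replicate 1 and SKP2-2 replicate 3 together, and with GC offsets, were chosen after seeing the data. The others, among them DESeq2 1.42.0, were listed earlier.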

Additional observations from a re-analysis of the deposited data

Results flagged for a closer look

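For 7 members both siRNAs passed the threshold against NC in opposite directions, and the direct test between the siRNAs passed as well. The log2 difference (SKP2-2 minus SKP2-1) was -1.66 for ITGB3, -1.45 for ITGA6, -1.37 for ITGA10, -1.15 for LAMC1, -1.08 for ITGA2 and -0.70 for LAMB2, each of which rose with SKP2-1 and fell with SKP2-2. It was 0.57 for ITGAE, which fell with SKP2-1 and rose with SKP2-2. Opposite calls were made for 6.64% of all 16575 genes tested. The calls against NC for ITGA10 and LAMB2 (SKP2-2) and for ITGAE (SKP2-1) had adjusted p-values of 0.0378, 0.0413 and 0.0331, close to the threshold. The groups of 3 libraries are too small to test a single library for standing apart.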

How the results depend on the processing

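The number of members called stayed within 1.5 times its value in each of 18 alternatives, and no called value changed sign. Leaving out 1 library at a time gave 17 to 20 members for SKP2-1 against NC, 13 to 16 for SKP2-2 against NC and 18 to 21 between the siRNAs. DESeq2 called 19, 16 and 18. GC offsets called 21, 20 and 22, with 11 rises and 9 falls for SKP2-2 against NC, and without NC replicate 1 and SKP2-2 replicate 3 together the counts were 20, 15 and 21. With the replicate number as a block, 17, 14 and 21 members were called. These counts stand without the share of all genes called in the same alternative. A shift in them is therefore not shown to be particular to the members. Libraries were also correlated over the genes tested, on log2 CPM after the group mean of each gene was subtracted. On these deviations, same-numbered libraries of different groups had correlations between -0.498 and 0.055. The differently numbered NC replicate 1 and SKP2-2 replicate 3 had 0.502. The third principal component also separates libraries within these groups. The correlations therefore cannot decide whether same-numbered libraries were paired. The alternatives tested single members again, whether or not they were called in the main fit. Of 499 such tests for SKP2-1 against NC, 25 lost a call and 1 gained one. The numbers were 14 and 16 of 500 for SKP2-2 against NC, and 20 and 3 of 500 between the siRNAs. Only members called in the main fit could lose a call, so these are not rates of loss among calls. Depth limits the 7 members left untested and those under 1 CPM.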

Other observations

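Some ligands and receptors of the gene lists outside the subunit genes, chosen after their values were seen, had the same order of groups as ITGA2, ITGA6 and LAMC1. FN1, which encodes fibronectin, the ligand of alpha 5 beta 1, was 696, 721 and 736 CPM in NC, 1174, 1274 and 1309.9 CPM with SKP2-1, and 471, 475 and 463 CPM with SKP2-2. FN1 rose by 0.80 on the log2 scale with SKP2-1 (adjusted p = 3.14e-08) and fell by 0.61 with SKP2-2 (adjusted p = 3.65e-07). TNC, encoding tenascin-C, was 260.1 ± 9.19 CPM in NC, 369 ± 9.13 with SKP2-1 and 188 ± 12.9 with SKP2-2 (SD, n = 3). THBS1, encoding thrombospondin-1, was 1827 ± 38.7, 2193 ± 24.6 and 1310.4 ± 8.32 CPM. DAG1, encoding dystroglycan, a laminin receptor that is not an integrin, was 449 ± 24.7, 555 ± 20.6 and 232 ± 5.88 CPM. NTN4, encoding a netrin that binds the laminin gamma 1 chain, was 91.3 ± 4.95, 139 ± 0.180 and 40.3 ± 1.60 CPM. Each of these 5 genes passed the threshold with both siRNAs and between them. Other genes of the lists passed in all 3 comparisons with the reverse order, lowest with SKP2-1 and highest with SKP2-2. Among them, SDC1 was 86.5 ± 15.2 CPM in NC, 32.8 ± 0.579 with SKP2-1 and 126 ± 15.3 with SKP2-2. CAV1 was 538 ± 36.6, 489 ± 8.62 and 707 ± 22.3 CPM.

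ITGB1-DT, a noncoding gene that starts next to ITGB1 on the opposite strand, had 4.47, 5.37 and 5.57 CPM in NC, 5.21, 4.41 and 4.42 CPM with SKP2-1, and 15.7, 13.1 and 12.6 CPM with SKP2-2. It rose with SKP2-2 (log2 fold change 1.42, SE 0.11, adjusted p = 2.86e-07) and was -0.14 on that scale with SKP2-1 (adjusted p = 0.367). ITGB1 was lowest in the same SKP2-2 libraries. The genes share 0.699% of the ITGB1 exon bases.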
